A study of Mus musculus with 18 samples.

Results

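The report covers 9 probe sets for 4 genes of the oligodendrocyte lineage, Pdgfra (2 probe sets), Vcan (3), Olig1 (1) and Sox10 (3), out of 22690 probe sets on an oligonucleotide array (MOE430A). They were chosen by a list of probe set identifiers, each paired with its gene in the definition of the set. The rule uses no measured value, but the list was drawn up with earlier results of these data known. All 9 were in the table and all 9 were bright enough to be tested. RNA came from the cochlear nucleus, where the auditory nerve ends in the brainstem, of C57BL/6J mice at postnatal day 7 (P7, 3 arrays), day 14 (P14, 2 arrays) and day 21 (P21, 3 arrays). No treatment or genetic change is given for any group, and the series describes baseline development. Each array received RNA pooled from 5 pups, and the labels do not say that every pool came from other animals, so p-values measure the spread between these pools.

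Oligodendrocytes arise from dividing precursor cells that carry the receptor PDGFRA on their surface and proliferate in response to its ligand, platelet-derived growth factor. When a precursor leaves the cell cycle and differentiates, it loses PDGFRA, while the transcription factors OLIG1 and SOX10 stay on, and SOX10 goes on to drive genes of myelin. Versican, the product of Vcan, is a large chondroitin sulfate proteoglycan of the brain matrix, which precursor cells are among the cells to make. None of the 4 is exclusive to this lineage: Pdgfra and Vcan are also expressed by connective tissue cells, and Sox10 by Schwann cells of nerve roots.

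The unit is a scaled signal, an intensity per probe set on a linear scale with a 2%-trimmed mean of 250.1 on every array. Median signals were 98.7 to 110.5. The ratio of 3' to 5' signal, a measure of RNA integrity, was 1.01 to 1.17 at P7, 1.02 to 1.05 at P14 and 1.05 to 1.13 at P21 for actin, and 0.820 to 0.904, 0.782 to 0.791 and 0.818 to 0.836 for Gapdh, so that the Gapdh ratio was lowest at P14. The 18S rRNA probe set stood apart more, with 43.6 and 38.6 at P14, 155, 3530 and 284 at P7, and 1197, 944 and 6136.5 at P21. P14, the age at which the Sox10 means were highest, thus had the lowest 18S signals, and the part of these differences in the results was not tested. One bacterial poly-A control was bright on each array, and the others, taken here as absent, reached at most 49.1. Of the 72 values of the 9 probe sets, 71 lay above that level. The tables used here name no other probe set of a mouse gene than controls, so the tissue could not be checked against its markers, nor could markers of connective tissue or Schwann cells be read beside the results.

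Between P7 and P21 the genes changed in different directions. One Pdgfra probe set and all 3 of Vcan were lower at P21, all 3 of Sox10 were higher, and Olig1 and the other Pdgfra probe set did not pass the test. That makes 7 of 9 probe sets past the threshold (limma, Benjamini-Hochberg adjusted p under 0.05 over 15296 tested probe sets), 4 lower and 3 higher, where 38.6% of all tested probe sets passed, 21.5% lower and 17.1% higher. The arrays of both ages did not overlap for the same 7, 4 lower and 3 higher, and for 49.5% of tested probe sets, 27.4% lower and 22.1% higher. The background's balance of directions depends on the scaling: with each array centred on its median, 3193 probe sets were called higher and 2732 lower, against 2622 and 3285, while the members' calls stayed at 3 higher and 4 lower. The median absolute log2 change of the 9 was 0.59, against 0.32 for all tested probe sets. Poly-A controls differed between arrays of an age, and blocked by control, where only P21 replicate 1 informs the change from P7, 1 of the 9 passed, Pdgfra 1421917_at. The log2 changes kept their sign in that fit, at -1.23, -0.61 and -0.94 for Vcan 1421694_a_at, 1427256_at and 1427257_at, and 0.36, 0.29 and 0.66 for Sox10 1424985_a_at, 1425369_a_at and 1451689_a_at. In bulk tissue, fewer cells of a type and less RNA per cell cannot be told apart.

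**Figure D1:**
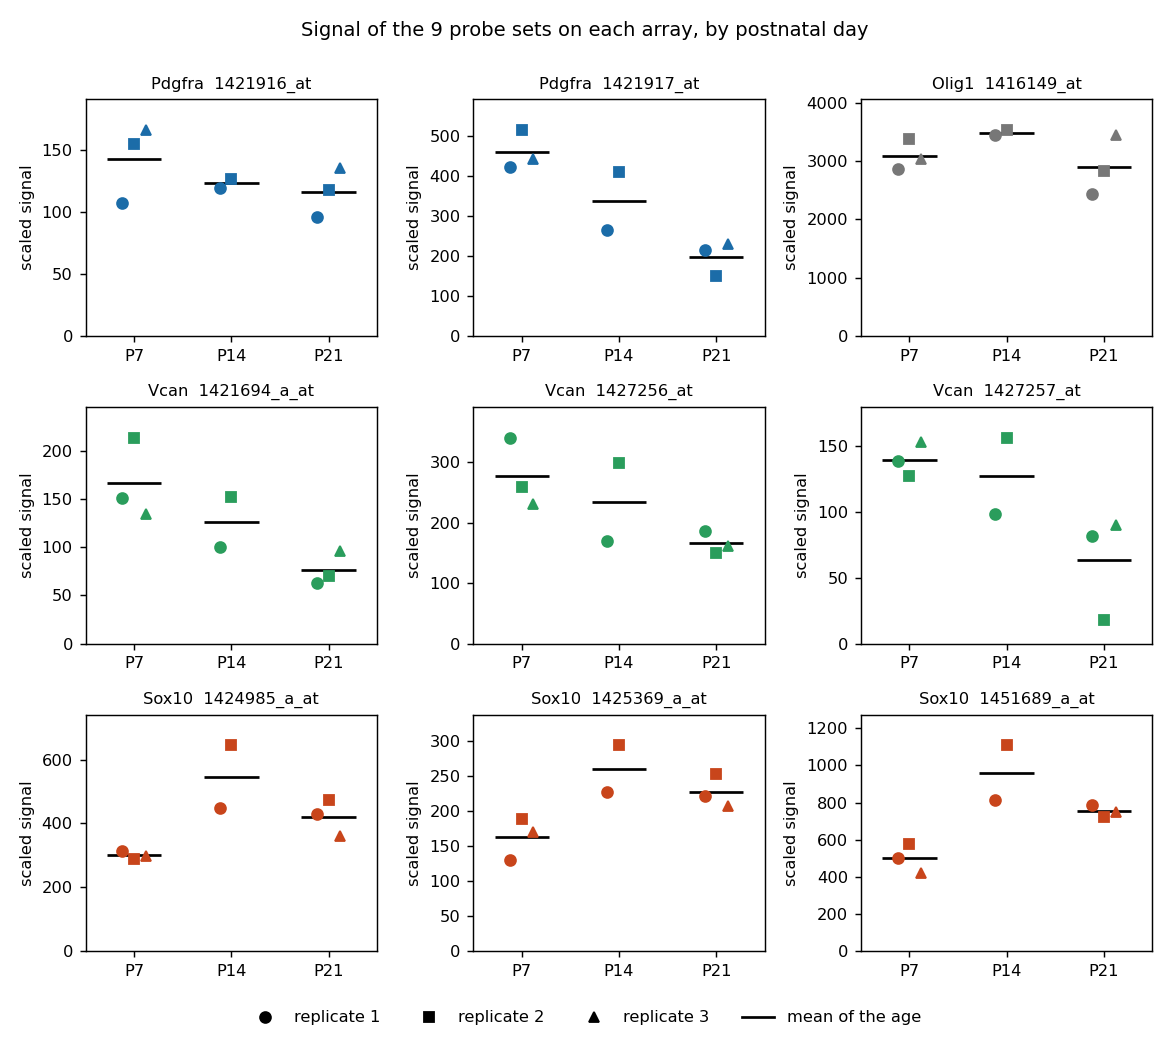
Scaled signal (y axis, linear from 0) of each of the 9 probe sets on the 8 arrays, by age (x axis), with a symbol for each replicate and a line for the mean of the age. By the mean of the age, Pdgfra 1421917_at and the 3 Vcan probe sets are lowest at P21 and the 3 Sox10 probe sets highest at P14. Single arrays of P14 and P21 overlap for Vcan 1427256_at and for Sox10 1424985_a_at and 1425369_a_at. Olig1 overlaps between P7 and P21.

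The receptor gene Pdgfra was read by 1421917_at, the brighter of its probe sets. Its signals were 422, 515 and 444 at P7, 266 and 410 at P14, and 215, 151 and 230 at P21. The ages did not overlap, and the P14 arrays lay between the others, with replicate 2 close to the P7 values. The mean went from 460 ± 48.7 (SD, n = 3) through 338 ± 101.4 (SD, n = 2) to 198 ± 42.0 (SD, n = 3). The log2 change from P7 to P21, on the log2(signal + 12.5) scale, was -1.18 (SE 0.19, 95% interval -1.60 to -0.76, limma adjusted p = 0.000724), and only 3.28% of tested probe sets had a lower one. With 12.5 added to each signal, the level at P21 was 0.442 of that at P7. The call was kept in 18 of 18 alternatives, with limma adjusted p-values of up to 0.0344.

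The other Pdgfra probe set, 1421916_at, was dimmer. It gave 108, 155 and 166 at P7, 119 and 127 at P14, and 96.0, 118 and 135 at P21, and the arrays of all ages overlapped. Its log2 change from P7 to P21 was -0.26 (SE 0.18, 95% interval -0.66 to 0.14, limma adjusted p = 0.284) and did not pass in any of the 18 alternatives. The probe sets of this gene thus disagreed in size. On the same array, 1421917_at exceeded 1421916_at by a log2 difference of 1.62 ± 0.25 (SD, n = 3) at P7 and 0.70 ± 0.37 (SD, n = 3) at P21. That difference fell by 0.92 without overlap between the ages, with an exact two-sided permutation p of 0.1, the smallest that 3 arrays against 3 can give (adjusted p = 0.7 over 7 pairs of probe sets of the same gene). The mean of both Pdgfra probe sets changed by -0.72 on the log2 scale.

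Vcan, the matrix proteoglycan, was lower at P21 by all 3 of its probe sets. For 1427256_at, the brightest, signals were 341, 259 and 231 at P7, 171 and 299 at P14, and 186, 150 and 161 at P21. All P21 arrays lay below all P7 arrays, while of the P14 arrays replicate 1 lay in the P21 range and replicate 2 in the P7 range. The log2 change from P7 to P21 was -0.69 (SE 0.20, 95% interval -1.14 to -0.23, limma adjusted p = 0.0225).

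For Vcan 1421694_a_at the signals were 151, 213 and 135 at P7, 101 and 152 at P14, and 63.0, 69.6 and 95.5 at P21. Every P21 array was below every P7 and P14 array. This probe set changed by -1.01 on the log2 scale between P7 and P21 (SE 0.22, 95% interval -1.49 to -0.53, limma adjusted p = 0.00434), a level 0.498 of that at P7. The call was kept in 17 of 18 alternatives, and was lost when blocked by poly-A control (-1.23, limma adjusted p = 0.08).

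For Vcan 1427257_at the signals were 139, 127 and 153 at P7, 98.2 and 156 at P14, and 81.5, 18.0 and 89.7 at P21. P21 replicate 2 stood far below the others, and its 18.0 is the only value of the 9 probe sets within the range of the absent controls. The log2 change was -1.19 (SE 0.39, limma adjusted p = 0.0348) with that array and -0.63 (limma adjusted p = 0.036) without it. The P7 and P21 arrays did not overlap in either case.

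The calls of Vcan 1427256_at and 1427257_at were lost in some alternatives. The first was lost without P7 replicate 1 (log2 change -0.53, limma adjusted p = 0.073), P21 replicate 2 (-0.62, 0.0755) or P21 replicate 3 (-0.67, 0.0607), and the second without P7 replicate 1 (-1.19, 0.0666), replicate 2 (-1.25, 0.0624) or replicate 3 (-1.13, 0.0882), with no filter on dim probe sets (0.0615) and after quantile normalization (-1.15, 0.0522). Within an array, the differences between the Vcan probe sets overlapped between P7 and P21 in all 3 pairs, with exact permutation p-values of 0.5, 0.9 and 0.5.

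Promoters were looked up for all 4 genes in the RefSeq table of build GRCm38.p6. It matched 2 of the 4 genes, Pdgfra and Vcan, and not Olig1 or Sox10. Each window runs 5' to 3' on the gene's strand from 250 bases before the start to 50 after it. Windows are shown for each gene matched, whatever its change between ages. Vcan and the brighter Pdgfra probe set were lower at P21, while Pdgfra 1421916_at did not pass. Capitals mark CANNTG, the E-box that basic helix-loop-helix factors such as OLIG1 can bind. For Pdgfra (chr5:75152001-75152300, plus strand) and Vcan (chr13:89742463-89742762, minus strand) the sequences are:
Pdgfra: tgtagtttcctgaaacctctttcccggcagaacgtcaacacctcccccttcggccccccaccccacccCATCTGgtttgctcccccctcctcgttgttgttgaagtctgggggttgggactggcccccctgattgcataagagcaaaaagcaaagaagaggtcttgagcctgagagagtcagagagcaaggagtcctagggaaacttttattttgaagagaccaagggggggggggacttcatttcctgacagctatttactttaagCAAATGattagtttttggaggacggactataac
Vcan: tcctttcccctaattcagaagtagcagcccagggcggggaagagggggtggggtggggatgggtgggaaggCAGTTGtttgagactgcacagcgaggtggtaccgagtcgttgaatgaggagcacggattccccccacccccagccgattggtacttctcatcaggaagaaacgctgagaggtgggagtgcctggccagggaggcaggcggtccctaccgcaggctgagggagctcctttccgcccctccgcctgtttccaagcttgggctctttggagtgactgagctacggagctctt

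The Pdgfra window held 2 E-boxes and the Vcan window 1, and 72.3% of the 32851 promoter windows in the table held at least 1. The GC box GGGCGG, searched on both strands, was found 2 times in the Vcan window and 0 times in the Pdgfra window (35.7% of all windows held it). The Sox motifs ACAAAG and ACAATG (18.7% and 12.6% of all windows) and TATAAA (13.6%) were searched on both strands and found in neither window. Motifs were matched letter by letter, and a match is a description of the sequence. The GC content was 51% for Pdgfra and 61% for Vcan, with a median of 52.7% over all windows.

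Olig1, a transcription factor present from precursors to mature cells of the lineage, had the brightest probe set, above 98.8% of those on the array. The signals of 1416149_at were 2854, 3375 and 3033 at P7, 3439 and 3528 at P14, and 2430, 2835 and 3440 at P21. The P21 arrays spanned the whole P7 range. The log2 change from P7 to P21 was -0.10 (SE 0.12, 95% interval -0.37 to 0.17, limma adjusted p = 0.557), and 0.02 without P21 replicate 1, so its sign is not settled. On the interval from all arrays the data allow a P21 level from 0.771 to 1.13 times that at P7. Both P14 arrays lay above all P7 arrays, but by a log2 change of 0.18 (SE 0.14, 95% interval -0.13 to 0.48, limma adjusted p = 0.373), which did not pass.

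Sox10, the transcription factor that stays on during differentiation and acts on myelin genes, was higher at P14 and at P21 than at P7 by all 3 of its probe sets. The brightest, 1451689_a_at, gave 502, 576 and 419 at P7, 812 and 1107 at P14, and 784, 725 and 752 at P21. The P14 arrays were the highest, the P21 arrays came next, and no age overlapped another. The mean rose from 499 ± 78.6 (SD, n = 3) to 960 ± 209 (SD, n = 2) and was 754 ± 29.7 (SD, n = 3) at P21. The log2 change was 0.92 from P7 to P14 (SE 0.16, 95% interval 0.57 to 1.27, limma adjusted p = 0.00192) and 0.59 from P7 to P21 (SE 0.14, 95% interval 0.28 to 0.91, limma adjusted p = 0.00733).

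Sox10 1424985_a_at gave 314, 290 and 297 at P7, 447 and 644 at P14, and 429, 473 and 360 at P21. All later arrays were above all P7 arrays, and P14 replicate 1 fell inside the P21 range. The log2 change was 0.81 (SE 0.16, limma adjusted p = 0.00462) from P7 to P14 and 0.46 (SE 0.15, limma adjusted p = 0.0299) from P7 to P21. Sox10 1425369_a_at, the dimmest of the 3, gave 130, 189 and 170 at P7, 227 and 293 at P14, and 222, 252 and 207 at P21. Its means had the same order of ages, with log2 changes of 0.64 (SE 0.18, limma adjusted p = 0.0215) and 0.46 (SE 0.16, limma adjusted p = 0.0424).

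The within-array differences between the 3 Sox10 probe sets changed between P7 and P21 by -0.00436, 0.13 and 0.14 on the log2 scale, and all pairs had overlapping ages (exact permutation p = 0.9, 0.5 and 0.7). From P7 to P21, Sox10 1451689_a_at passed without each array in turn. The call of 1424985_a_at was lost without P7 replicate 2 (0.44, limma adjusted p = 0.0828), P7 replicate 3 (0.45, 0.0733), P21 replicate 1 (0.44, 0.0686) or P21 replicate 2 (0.38, 0.105), and that of 1425369_a_at without P7 replicate 1 (0.32, 0.127) or 3 (0.49, 0.0703), without P21 replicate 1 (0.47, 0.0719), 2 (0.38, 0.13) or 3 (0.52, 0.0546), with no filter on dim probe sets (0.0629) and with no trend in the variance prior (0.0511).

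**Figure D2:**
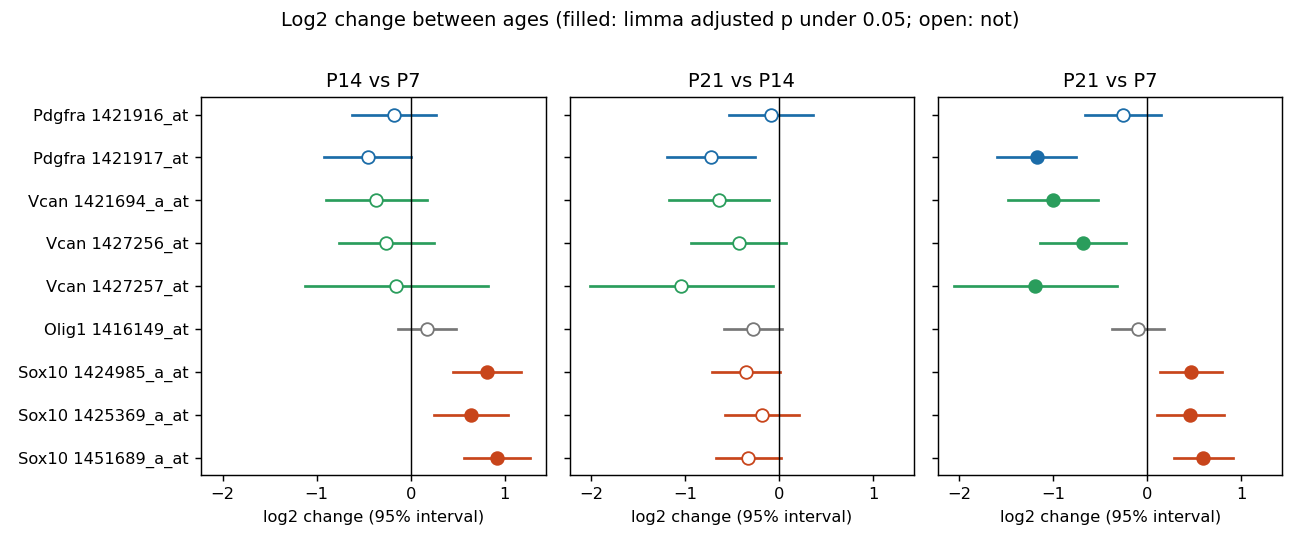
Log2 change (x axis) with its 95% interval for each probe set (y axis) in 3 comparisons of ages, with filled points where the limma adjusted p was under 0.05. Sox10 is to the right of 0 from P7 to P14 and from P7 to P21, Vcan and 1 Pdgfra probe set are to the left from P7 to P21, and no point is filled from P14 to P21.

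From P7 to P14, the week in which hearing begins in mice, 3 of 9 probe sets passed, all 3 of Sox10 and all higher, where 29.6% of all tested probe sets passed, 12.9% higher and 16.7% lower. The arrays of both ages did not overlap for 4 that were higher (Sox10 and Olig1) and 1 that was lower (Pdgfra 1421917_at), where this held for 58.9% of tested probe sets, 24.3% higher and 34.6% lower. With median centring, 2528 probe sets of the array were called higher and 1849 lower, against 1967 and 2557, so that the background's direction turned. The share of members called is therefore close to that of the array as a whole, although the change of Sox10 1451689_a_at exceeded that of 96.0% of tested probe sets. The probe sets of Pdgfra and Vcan had negative log2 changes of -0.46 to -0.15, with limma adjusted p-values of 0.128 to 0.835, and those of Vcan 1427256_at and 1427257_at were 0.13 and 0.15 without P14 replicate 1. Without P14 replicate 2 the call of 1424985_a_at was lost (0.56, limma adjusted p = 0.0598), as was that of 1425369_a_at (0.46, 0.19), which was also lost without P7 replicate 1 (0.50, 0.0506). The call of 1451689_a_at remained, at 0.70 (limma adjusted p = 0.0278). Blocked by poly-A control, 1425369_a_at did not pass (0.60, limma adjusted p = 0.0599).

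From P14 to P21, 0 of 9 passed in limma, where 2.05% of tested probe sets did (0.843% higher and 1.2% lower), and none passed in any alternative. The arrays did not overlap for 4 of the 9, all lower at P21, where this held for 38.1% of tested probe sets, 21.3% higher and 16.8% lower. These were Pdgfra 1421917_at, Vcan 1421694_a_at and 1427257_at, and Sox10 1451689_a_at. At an unadjusted limma p under 0.05 there were 3 of the 9, where 2969 of the 15296 tested probe sets reached it. They were Pdgfra 1421917_at (log2 change -0.72, SE 0.21), Vcan 1421694_a_at (-0.64, SE 0.24) and Vcan 1427257_at (-1.04, SE 0.44). Their limma adjusted p-values were 0.101, 0.187 and 0.23. These values moved with single arrays. Leaving out P14 replicate 2 gave -0.42 for Pdgfra 1421917_at and -0.37 for Vcan 1421694_a_at. Leaving out P21 replicate 2 gave -0.48 for Vcan 1427257_at. All 9 log2 changes were negative, from -1.04 to -0.08, with a median of -0.35 against 0.03 over all tested probe sets. These are not 9 separate observations: the probe sets are of 4 genes, and all 9 were higher on P14 replicate 2 than on replicate 1. Without P14 replicate 2 the 9 log2 changes ran from -0.74 to -0.00487, and without P21 replicate 1 that of Pdgfra 1421916_at was 0.03. The P14 arrays also enter the comparison with P7, and P7 arrays are shared by the comparisons of P14 and of P21 with P7, so these values are not independent.

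The changes of the 2 weeks were compared by the contrast of the first interval minus the second. It passed for Sox10 1451689_a_at (difference 1.25, SE 0.28, limma adjusted p = 0.0276) and Sox10 1424985_a_at (1.17, SE 0.29, limma adjusted p = 0.0397), where 8.01% of tested probe sets passed, 3.93% with a positive difference and 4.08% with a negative one. That even split depends on the scaling, since median centring gave 864 positive and 440 negative calls, against 601 and 624. These probe sets thus changed more upward before P14 than after it. For Sox10 1425369_a_at the difference was 0.82 (SE 0.32, limma adjusted p = 0.138). For Pdgfra, Vcan and Olig1 it lay between -0.09 and 0.89, with limma adjusted p-values from 0.278 to 0.900.

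Most alternatives without an array ended at least 1 of these calls. Without P14 replicate 2 the differences were 0.81 for 1451689_a_at and 0.65 for 1424985_a_at (limma adjusted p = 0.282 and 0.371), and without P14 replicate 1 they were 1.69 and 1.68 (0.0583 and 0.0571). Without P21 replicate 3 neither passed (1.25 and 1.06, limma adjusted p = 0.0513 and 0.0642), and 1424985_a_at was also lost without P7 replicate 2 (1.14, 0.0688), P7 replicate 3 (1.16, 0.0642) or P21 replicate 1 (1.18, 0.0532). With no trend in the variance prior, or blocked by poly-A control, neither passed (1451689_a_at at limma adjusted p = 0.0524 and 0.14, 1424985_a_at at 0.0652 and 0.0985), and 1424985_a_at was lost with no filter (0.0611) and with the replicate block (1.05, 0.0581).

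**Figure D3:**
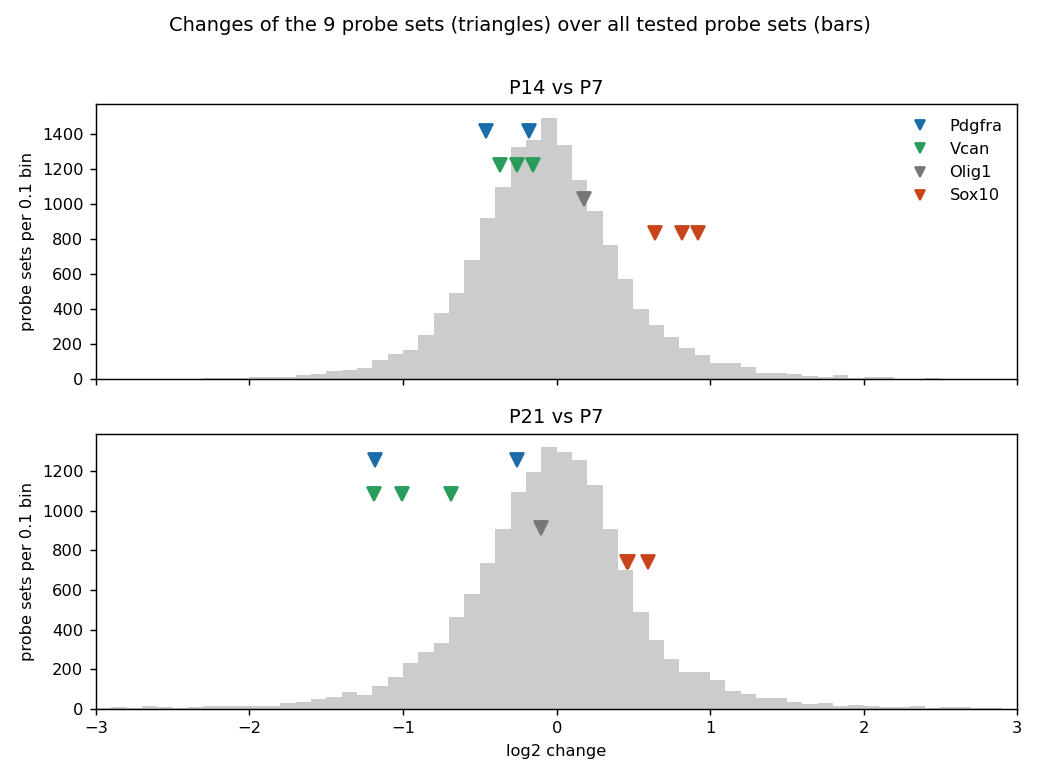
Histogram of the log2 change (x axis, bins of 0.1) of all 15296 tested probe sets (bars, number of probe sets on the y axis) from P7 to P14 and from P7 to P21, with a triangle for each of the 9 probe sets, whose height only separates the genes. The Sox10 triangles lie in the right shoulder of both histograms, at 0.64 to 0.92 for P14 and 0.46 to 0.59 for P21. Those of Pdgfra, Vcan and Olig1 lie further to the left for P21 than for P14.

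The share of the log2 change from P7 to P21 that had been reached by P14 differed by gene as a point estimate. The shares themselves were not tested. Whether a share lies above or below 1 rests on the change from P14 to P21, where 0 of 9 probe sets passed. The share was 1.55, 1.76 and 1.39 for Sox10 1451689_a_at, 1424985_a_at and 1425369_a_at, a share above 1 meaning that P14 lay beyond P21. It was 0.388 for Pdgfra 1421917_at and 0.376, 0.365 and 0.127 for Vcan 1427256_at, 1421694_a_at and 1427257_at. The shares depended on the P14 array. From replicate 1 alone they were 1.18, 1.20 and 1.01 for Sox10, in the order above, and 0.641 for Pdgfra 1421917_at, and from replicate 2 alone 1.92, 2.32 and 1.78, and 0.134. For Vcan they were 0.935, 0.632 and 0.381 from replicate 1, and -0.184, 0.0988 and -0.128 from replicate 2. Pdgfra 1421916_at and Olig1, whose changes from P7 to P21 did not pass, had shares of 0.68 and -1.77. By array, that of Pdgfra 1421916_at was 0.841 and 0.518. Sox10 shares were thus above 1 on either array, and the Pdgfra and Vcan shares below 1. From replicate 1 they nearly met, at 1.01 for Sox10 1425369_a_at and 0.935 for Vcan 1427256_at, and the wide gap came from replicate 2.

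Replicate 2 at P14 was above replicate 1 in 9 of 9 probe sets, where 51.1% of all tested probe sets were higher on it. The difference was largest for Vcan 1427256_at, with a log2 difference of 0.77, above that of 99.2% of tested probe sets, and was 0.60 for Pdgfra 1421917_at and 0.51 for Sox10 1424985_a_at. It was smallest for Olig1, at 0.04. In 7 of the 9 probe sets it exceeded that of at least 92.3% of tested probe sets. The median over the 9 was 0.51, against 0.00487 for all tested probe sets. Between arrays of P7 or of P21, between 3 and 7 of the 9 were higher on the second of a pair, and the medians over the 9 ran from -0.15 to 0.24. The Gapdh ratio of the P14 arrays was 0.782 and 0.791, and the actin ratio 1.05 and 1.02. Their poly-A controls were dap and lys, and the part of such differences in the result was not tested.

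**Figure D4:**
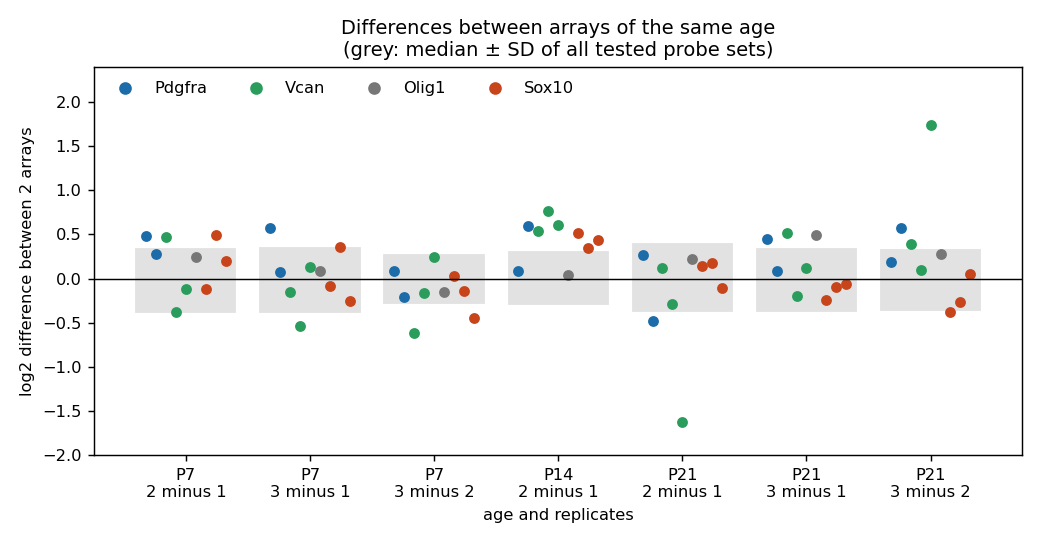
Log2 difference (y axis) of each of the 9 probe sets between any pair of arrays of the same age (x axis, the first number minus the second), with a grey band for the median ± SD of all tested probe sets. All 9 points are above 0 for the pair of P14 arrays, and the points far from the rest in 2 of the P21 pairs are Vcan 1427257_at on replicate 2.

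Because 12.5 was added to each signal, ratios between genes on the same array remove a factor common to the array only approximately. They were taken from the brightest probe set of each gene. Their level has no meaning, since probe sets differ in brightness, and only their change between ages is read. Sox10 over Pdgfra rose by 1.77 on the log2 scale from P7 to P21, a ratio 3.42 times higher. Its log2 values were 0.25, 0.16 and -0.08 at P7, 1.57 and 1.41 at P14, and 1.81, 2.18 and 1.66 at P21. The ages did not overlap, and the P14 arrays, which differed by 0.60 in Pdgfra and 0.44 in Sox10, were close together in this ratio.

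Sox10 over Vcan rose by 1.28, with log2 values of 0.54, 1.12 and 0.83 at P7, 2.17 and 1.84 at P14, and 2.01, 2.18 and 2.14 at P21. The P14 values were in the range of P21 or next to it. Sox10 over Olig1 rose by 0.69 and Olig1 over Pdgfra by 1.08, both without overlap between P7 and P21. Olig1 over Vcan (0.59) and Vcan over Pdgfra (0.49) overlapped. The 4 ratios without overlap each had an exact two-sided permutation p of 0.1, the smallest possible with 3 arrays against 3 (adjusted p = 0.15 over 6 ratios), and the other 2 had 0.3 and 0.2. With the mean of all probe sets of a gene in place of the brightest, Sox10 over Pdgfra rose by 1.22, Olig1 over Pdgfra by 0.62 and Vcan over Pdgfra changed by -0.24, so the sign of the last depended on the choice of probe sets.

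**Figure D5:**
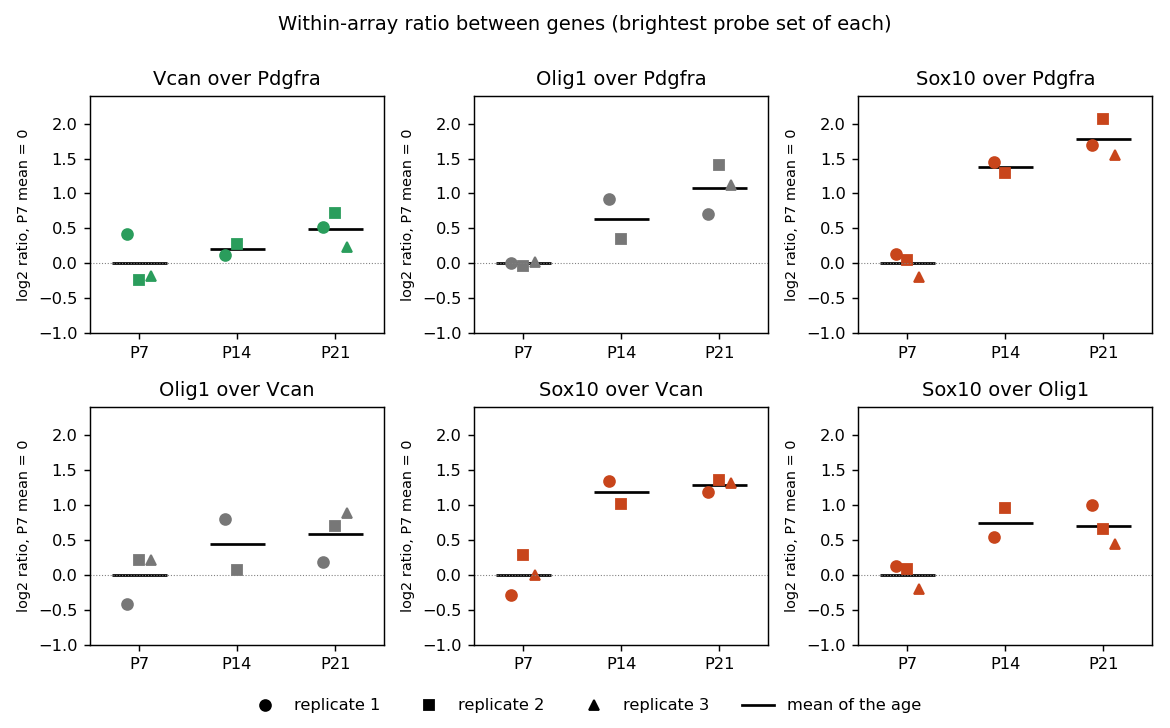
Log2 ratio between 2 genes on the same array (y axis, set to 0 at the P7 mean) by age (x axis), with a symbol for each replicate and a line for the mean of the age. Sox10 over Pdgfra and Sox10 over Vcan stand above every P7 array at P14 and P21, while Vcan over Pdgfra and Olig1 over Vcan overlap between P7 and P21.

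Across the 8 arrays, the signals of Pdgfra 1421917_at followed those of Vcan more closely than those of its own other probe set. Pearson's r on the log2 scale was 0.93 with Vcan 1421694_a_at, 0.87 with 1427257_at and 0.85 with 1427256_at, but 0.53 with Pdgfra 1421916_at. Of all tested probe sets, 1.01% had a higher r with Pdgfra 1421917_at than Vcan 1421694_a_at did. That share was 4.69% for Vcan 1427257_at, 6.22% for 1427256_at and 27.8% for Pdgfra 1421916_at. Sox10 1451689_a_at had an r of 0.90 and 0.86 with its other probe sets and of -0.40 with Pdgfra 1421917_at. Olig1 had an r of 0.26 with Sox10 1451689_a_at and 0.38 with Pdgfra 1421917_at. These values describe 8 arrays that share the ages and the differences between arrays given above, and the genes of other probe sets with a like pattern are not named here.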

How the data were processed

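RNA of the mouse cochlear nucleus was measured on 8 oligonucleotide arrays (3, 2 and 3 for P7, P14 and P21). The deposited table holds 1 scaled intensity per probe set and array, and the submitters' processing notes name GCOS with no version. Background treatment and detection calls are not given in the sources used here. The spotted cDNA arrays of the series were not used here.

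Arrays were brought to a common 2%-trimmed mean, which multiplied the deposited intensity values by 0.99997 to 1.00003. The 64 control probe sets and those with a mean signal under 50.0 were left out, leaving 15296. Tests used limma 3.58.1 in R 4.3.3 (lmFit, eBayes with a trend) on log2(signal + 12.5) over all 8 arrays, two-sided, with Benjamini-Hochberg adjustment over all 15296 and a threshold of 0.05. Log2 changes on this scale understate those of dim probe sets. Ratios and pairs of probe sets of the same gene were compared by exact permutation over arrays. The limma fit was also run on simulated data with independent noise for each probe set. That simulation held no differences shared by the probe sets of an array, and its added changes were larger than those of Sox10. It therefore cannot show how the fit handles such shared differences or smaller changes. Arrays have no read depth, and their number limits the precision.

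Alternatives were a smaller and a larger pseudocount (2.50 and 50.0), no filter and a stricter one (100.03), quantile normalization, median centring, no trend, a block for the replicate number or the poly-A control found on the array, fitting only the 2 ages compared, and leaving out each array. Members and lists were chosen with earlier results of these data known. All 9 members are named. The lists of other pathway and marker genes and the rule for genes of like pattern could not be run, since the tables used here pair no other probe set with a mouse gene. One P21 label counts 2 replicates where the others count 3, and all 3 were used.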

Additional observations from a re-analysis of the deposited data

Results flagged for a closer look

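For 2 of the 9 probe sets, both of Sox10, the changes before and after P14 differed in a direct contrast of the intervals. The difference was 1.17 on the log2 scale for 1424985_a_at and 1.25 for 1451689_a_at. Both are higher at P14 than at P21 in their means, but neither change from P14 to P21 passed on its own (limma adjusted p = 0.272 and 0.286). Without P14 replicate 2 the differences were 0.65 and 0.81, and neither passed (limma adjusted p = 0.371 and 0.282).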

How the results depend on the processing

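The log2 changes of the calls of single members kept their sign in all alternatives. Of the 9 members, the number called from P7 to P21 was 7, and 4 to 7 with 1 array left out; it was 1 when blocked by poly-A control, where P21 rests on replicate 1 and Pdgfra 1421917_at is the member left. From P7 to P14 it was 3, and 1 to 3 with 1 array left out, and from P14 to P21 it was 0 throughout. For the difference between intervals it was 2, and 0 to 2 with 1 array left out, 1 with no filter, 0 with no trend, 1 with the replicate block and 0 with the poly-A block. From P7 to P21 the number was also 5 with no filter, and 6 with quantile normalization or with no trend. With the poly-A block it was 2 from P7 to P14. Beyond the count for the intervals, the replicate block changed no member count. Deviations of same-numbered arrays from the mean of their age correlated at -0.04 to 0.28, with 3 of 7 pairs over 0.1. At 2 or 3 arrays per age such deviations constrain each other, so these values cannot decide whether replicate numbers pair the arrays.

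Over all tested probe sets, the poly-A block gave 1938 calls from P7 to P21, 0 from P14 to P21 (2070 at an unadjusted p under 0.05) and 68 for the intervals. From P14 to P21 there were 313 calls, 109 with no filter, 121 with no trend, 198 with only the arrays of those ages and 0 to 465 with 1 array left out. With 1 array left out there were 2386 to 4781 from P7 to P14, 4777 to 5682 from P7 to P21 and 53 to 1181 for the intervals, where no trend gave 793. With the mean of a gene's probe sets, Vcan over Pdgfra was -0.24, Olig1 over Pdgfra 0.62 and Sox10 over Pdgfra 1.22. The cause of these shifts was not tested. Median centring moved the median of all tested probe sets by 0.12 and quantile normalization by 0.10 in the contrast of the intervals.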
